A study of Homo sapiens with 24 samples.

Results

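The genes described here belong to the alternative splicing programme of epithelial-to-mesenchymal transition (EMT). Of these 9 genes, 6 encode RNA-binding splicing regulators (ESRP1, ESRP2, RBFOX2, MBNL1, QKI and RBM47) and 3 are known for isoforms that differ between epithelial and mesenchymal cells (FGFR2, ENAH and SLK). They were chosen by name, and from FGFR2, ENAH and SLK each transcript was added that held at least 10% of the gene's TPM in some group. TPM is a transcript level corrected for transcript length and library depth. All 9 genes were among the 17453 genes tested, out of 34834 genes with a transcript in the deposited tables. Of the 36 transcripts of FGFR2, ENAH and SLK, 14 reached the limit of 10%, and 11 of these 14 had enough estimated counts to be tested.

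RNA was sequenced from SK-MES1, an established human cell line of lung squamous cell carcinoma, spelled SK-MES-1 in the labels. All cells were serum-starved for 3 h and were then left untreated or received 2 ng/ml TGFβ1, a cytokine that drives EMT in many epithelial cells. Each arm was sampled at 0, 8, 24 and 48 h. The 8 groups hold 3 biological replicates each, 24 libraries in all. A single cell line under a single dose limits the model.

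A library held between 46613589 and 77964234 estimated counts (median 54120879). The deposited tables' names carry 4 codes of unstated meaning. Within each arm 1 code covers 0 and 8 h and another covers 24 and 48 h. The arms share no code, so that code and treatment cannot be told apart at 8, 24 or 48 h alone. Changes of the arm difference from 0 to 8 h and from 24 to 48 h remove an offset between codes. Changes from 0 or 8 h to 24 or 48 h do not. Among markers of squamous epithelium, KRT5, KRT6A, KRT14 and DSG3 were near 0 in every library (highest TPM 0.102), whereas TP63 (7.69 to 37.5 TPM) and PKP1 (15.6 to 58.5 TPM) were present. Of the leukocyte markers CD3E was at 0, PTPRC had 1.26 to 2.10 TPM and CD68 had 7.64 to 40.2 TPM, and of the endothelial markers CDH5 and VWF reached at most 0.342 TPM and PECAM1 reached 4.14 TPM. The epithelial transcription factor gene GRHL2 reached at most 0.320 TPM beside 21.6 to 37.0 TPM of EPCAM. VIM, which encodes the mesenchymal intermediate filament vimentin, ranged from 755.5 to 3808 TPM.

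ESRP1 and ESRP2 are epithelial splicing regulators that promote the epithelial isoforms of many transcripts, and they are commonly repressed during EMT. RBFOX2, MBNL1 and QKI bind defined sequence motifs in introns and act on many exons that switch in mesenchymal cells, and RBM47 is an RNA-binding protein described as a brake on EMT in other carcinoma models. Among the targets, FGFR2 encodes a fibroblast growth factor receptor whose mutually exclusive exons IIIb and IIIc set its ligand preference, ENAH encodes the actin regulator Mena with an epithelial exon 11a, and SLK encodes a kinase with an alternative exon 13.

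For each target, the exon whose inclusion was measured is printed because the shares described further on count transcripts with and without it. Each is given 5′ to 3′ on the transcript strand, with the exon in capitals and 20 bases of intron on either side in lower case, from GRCh38. All 3 lie in coding sequence. ENAH exon 11a is at chr1:225504991-225505053 on the minus strand and has 63 bases. FGFR2 exon IIIb is at chr10:121518682-121518829 on the minus strand and has 148 bases. SLK exon 13 is at chr10:104010816-104010908 on the plus strand and has 93 bases.
ENAH exon 11a: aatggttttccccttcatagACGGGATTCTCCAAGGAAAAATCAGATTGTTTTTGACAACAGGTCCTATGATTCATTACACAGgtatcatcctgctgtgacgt
FGFR2 exon IIIb: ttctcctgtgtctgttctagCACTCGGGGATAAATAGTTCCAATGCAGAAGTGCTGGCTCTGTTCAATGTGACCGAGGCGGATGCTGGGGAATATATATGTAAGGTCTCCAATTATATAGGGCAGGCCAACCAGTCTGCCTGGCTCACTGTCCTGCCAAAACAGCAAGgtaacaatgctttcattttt
SLK exon 13: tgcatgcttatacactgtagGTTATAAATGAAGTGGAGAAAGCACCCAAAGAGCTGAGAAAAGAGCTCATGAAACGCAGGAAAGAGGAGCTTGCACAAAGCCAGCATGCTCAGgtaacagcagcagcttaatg

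Across 8, 24 and 48 h, 7 of the 9 genes differed between the arms in a moderated F-test of limma voom at an adjusted p of 0.01, beside 42.5% of all genes tested. RBFOX2 (adjusted p = 0.015) and SLK (adjusted p = 0.87) did not pass. At 0 h, 0 of 9 genes passed limma voom's test, beside 0.0% of all genes, and 800 of all genes had an unadjusted p under 0.05. At 8 h 4 genes passed (1 higher with TGFβ, 3 lower), beside 16.4% of all genes (9.12% higher, 7.26% lower). At 24 h 3 passed (1 higher, 2 lower), beside 29.3% (15.4% higher, 13.8% lower). At 48 h 8 passed (5 higher, 3 lower), beside 32.6% (16.1% higher, 16.4% lower). The median log2 difference of the 9 genes was −0.05, 0.03 and 0.27 at 8, 24 and 48 h, and that of all genes was −0.02, −0.02 and −0.01. All 5 genes that passed at 48 h and not at 24 h were regulators, and SLK was the only other gene that had not passed at 24 h. Of these 5, ESRP1 and ESRP2 had passed at 8 h, and for none did the arm difference change from 24 to 48 h at this threshold. In TPM, the libraries of the arms did not overlap for 0, 6, 4 and 8 of the 9 genes at 0, 8, 24 and 48 h, beside 6.99%, 47.4%, 40.3% and 55.1% of all genes. The arm difference itself changed for 2, 3 and 5 of the 9 genes from 0 h to 8, 24 and 48 h (7.88%, 16.6% and 20.7% of all genes), for 2 and 3 from 8 h to 24 and 48 h (6.69% and 14.0%), and for 1 from 24 to 48 h (9.11%).

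**Figure D1:**
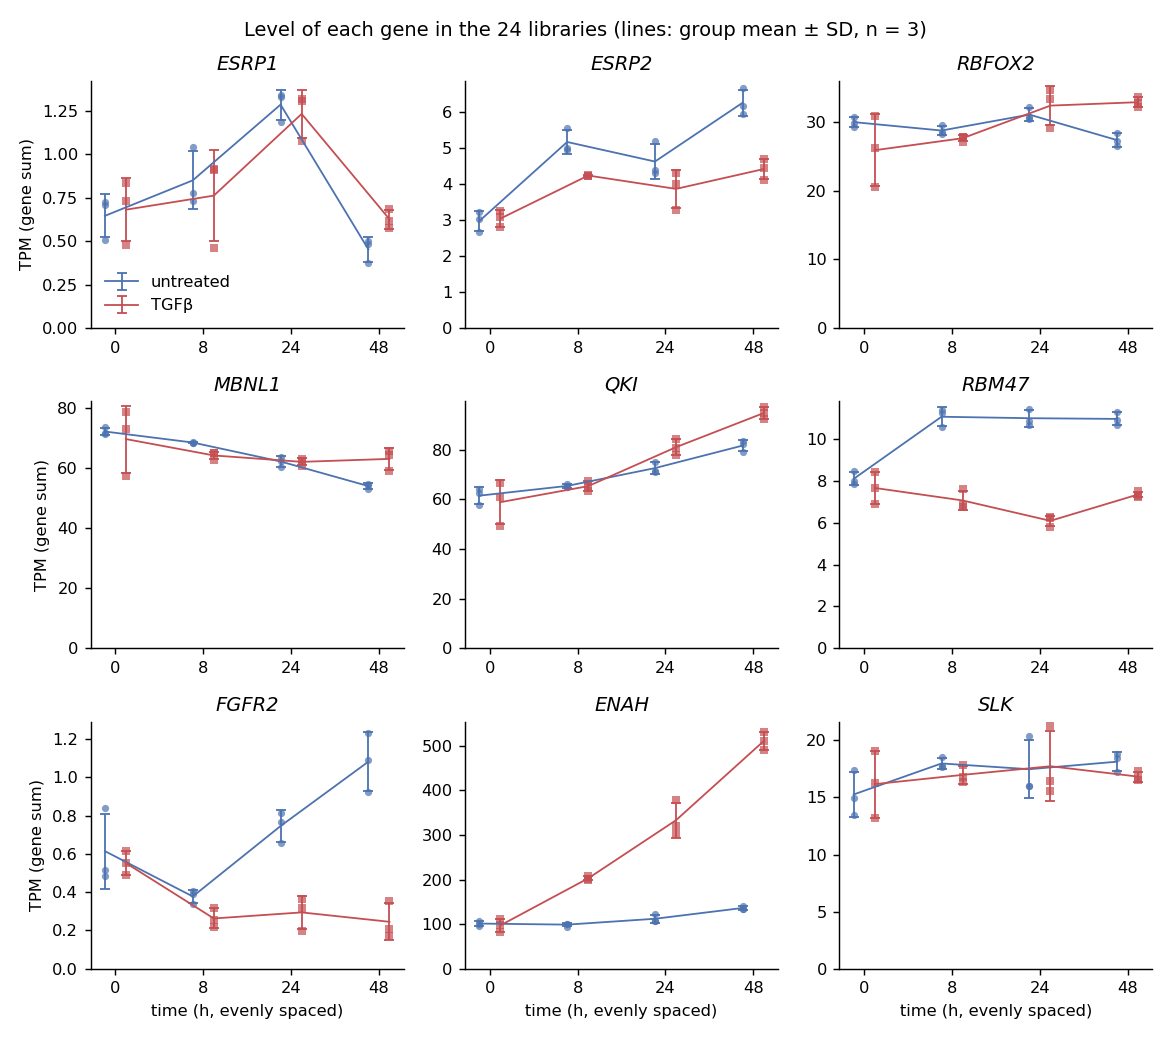
TPM of each of the 9 genes (vertical axes) in every library against time in h (horizontal axes, evenly spaced), with points for libraries and lines for group means ± SD (n = 3) of untreated (blue) and TGFβ (red) cells. ENAH separated upward and FGFR2 and RBM47 downward with TGFβ, whereas the SLK libraries of the arms lay together (TPM ratio of the arms 0.928 at 48 h).

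RBM47 (chr4:40423267-40630875 of GRCh38, minus strand) was the regulator with the clearest difference, lower with TGFβ at 8, 24 and 48 h. At 8 h the untreated libraries had 11.4, 11.2 and 10.6 TPM and the TGFβ libraries 7.59, 6.84 and 6.75 TPM. At 48 h the untreated libraries had 10.9, 11.3 and 10.7 TPM and the TGFβ libraries 7.51, 7.24 and 7.30 TPM. The arms did not overlap at these times, and the log2 differences were −0.64 ± 0.054 (SE), −0.77 ± 0.057 and −0.61 ± 0.057 at 8, 24 and 48 h (n = 3 per group, limma voom adjusted p = 8.4e-09, 3.8e-10 and 1.5e-08). RBM47 was the only regulator whose arm difference had already changed between 0 and 8 h (by −0.55, adjusted p = 3e-05), a change that removes an offset between the codes of the arms. Its level rose with time in untreated cells, from 7.86 to 8.45 TPM at 0 h to 10.7 to 11.3 TPM at 48 h (log2 change 0.28, adjusted p = 0.00018), and fell by 0.24 on the log2 scale in the TGFβ arm (adjusted p = 0.001). These changes stood beside 55.1% of all genes that changed from 0 to 48 h in untreated cells and 57.9% in the TGFβ arm. With library sizes set to 4 reference genes the difference was −0.33 at 24 h (adjusted p = 0.0036) and −0.26 at 48 h (adjusted p = 0.021), where the call was lost.

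ESRP2 (chr16:68229033-68238102, minus strand) was also lower with TGFβ, against a background that rose in both arms. The untreated libraries had 6.67, 5.97 and 6.18 TPM at 48 h and the TGFβ libraries 4.46, 4.70 and 4.12 TPM, with no overlap. Log2 differences were −0.29 ± 0.071, −0.22 ± 0.074 and −0.40 ± 0.071 at 8, 24 and 48 h (adjusted p = 0.0041, 0.024 and 0.00011), of which the first and the last passed. From 0 to 48 h ESRP2 rose by 0.88 on the log2 scale in untreated cells (adjusted p = 1.6e-09) and by 0.53 in the TGFβ arm (adjusted p = 5.5e-06). At 0 h the TPM of ESRP2 lay between 2.66 and 3.25 in both arms. The change of the arm difference from 0 h did not pass, with −0.25 to 8 h (adjusted p = 0.18) and −0.35 to 48 h (adjusted p = 0.019). The call at 8 h was lost without untreated 8 h replicate 1 or 3 or TGFβ 8 h replicate 1 or 3, with adjusted p values up to 0.026, and at 24 h a call was gained without untreated 24 h replicate 2 (adjusted p = 0.0032). The 8 h call was also lost on log2(TPM + 1) (−0.24, adjusted p = 0.059) and with 4 reference genes (−0.23, adjusted p = 0.013). Length-scaled counts, explained for ESRP1 below, lost it as well (−0.23, adjusted p = 0.1). With library sizes set to 4 reference genes the difference turned to 0.23 at 24 h (adjusted p = 0.006) and came to −0.04 at 48 h (adjusted p = 0.6). That scaling moved the median of all genes by 0.43 and 0.34 at these times.

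ESRP1 (chr8:94641074-94707466, plus strand) was scarce and changed direction between 8 and 48 h. Its estimated counts at 8 h were 107, 92 and 113 in untreated cells and 57.1, 62 and 82 with TGFβ, and at 48 h 51, 41 and 44 in untreated cells and 73, 60 and 57 with TGFβ. In TPM the arms overlapped at 0, 8 and 24 h and separated only at 48 h, where the untreated mean was 0.452 ± 0.070 TPM (SD, n = 3) and the TGFβ mean 0.626 ± 0.054 TPM. The log2 difference in counts was −0.52 ± 0.13 at 8 h (adjusted p = 0.0045), 0.01 ± 0.10 at 24 h (adjusted p = 0.94) and 0.74 ± 0.16 at 48 h (adjusted p = 0.00056). Both calls were lost in length-scaled counts, which correct for a change in the mean transcript length of a gene, with −0.22 (adjusted p = 0.6) at 8 h and 0.49 (adjusted p = 0.2) at 48 h. On log2(TPM + 1) they were lost too, with −0.08 (adjusted p = 0.66) at 8 h and 0.16 (adjusted p = 0.21) at 48 h. At 8 h the call was also lost without untreated 8 h replicate 1 or 3 or TGFβ 8 h replicate 1 or 3, with adjusted p values up to 0.030. The change of the arm difference from 0 to 8 h did not pass (−0.33, adjusted p = 0.35), whereas that from 0 to 48 h did (0.93, adjusted p = 0.002).

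MBNL1 (chr3:152243828-152465780, plus strand), which encodes a muscleblind-like protein, fell with time in both arms and was higher with TGFβ at 48 h. At 0 h the untreated libraries had 71.5, 71.1 and 73.5 TPM. At 48 h they had 54.3, 52.8 and 54.6 TPM, and the TGFβ libraries had 64.4, 65.5 and 58.9 TPM. The arms did not overlap at 48 h, with a log2 difference of 0.27 ± 0.063 (adjusted p = 0.0014), against −0.05 ± 0.062 at 8 h (adjusted p = 0.61) and 0.08 ± 0.062 at 24 h (adjusted p = 0.31). From 0 to 48 h MBNL1 fell by 0.57 on the log2 scale in untreated cells (adjusted p = 7.2e-08) and dropped by 0.31 in the TGFβ arm (adjusted p = 0.00015). At 8 h the TPM of MBNL1 was lower with TGFβ without overlap (62.7 to 64.9 against 68.3 to 68.6 TPM), although the difference in counts did not pass. The change of the arm difference from 0 to 48 h was 0.26 (adjusted p = 0.032) and did not pass. The call at 48 h was also lost on log2(TPM + 1), with 0.22 (adjusted p = 0.02), and with library totals, with 0.19 (adjusted p = 0.028).

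QKI (chr6:163414000-163578592, plus strand) encodes a STAR-family RNA-binding protein that also promotes circular RNA formation in mesenchymal cells. It rose with time in both arms and was higher with TGFβ at 48 h, although the change of the arm difference from 0 to 48 h did not pass (0.26, adjusted p = 0.07). At 24 h the untreated libraries had 71.6, 70.9 and 75.2 TPM and the TGFβ libraries 77.8, 84.3 and 80.8 TPM. At 48 h the untreated libraries had 79.2, 83.3 and 82.4 TPM and the TGFβ libraries 94.8, 92.5 and 97.0 TPM. The arms did not overlap at either time. The log2 difference was 0.23 ± 0.072 at 24 h (adjusted p = 0.017) and 0.28 ± 0.072 at 48 h (adjusted p = 0.0031). The 48 h call was lost on log2(TPM + 1), with 0.21 (adjusted p = 0.02), with library totals, with 0.20 (adjusted p = 0.038), and without untreated 48 h replicate 1 (adjusted p = 0.017) or any 1 of the TGFβ 48 h replicates (adjusted p = 0.011). At 24 h QKI passed with DESeq2 (adjusted p = 0.0091) and with a replicate block (0.23, adjusted p = 0.0024), and a call was also gained without untreated 24 h replicate 2 (adjusted p = 0.0024), TGFβ 0 h replicate 1 (adjusted p = 0.009) or TGFβ 0 h replicate 2 (adjusted p = 0.006).

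RBFOX2 (chr22:35738736-36028824, minus strand) passed the test only at 48 h among the 4 times, and by an amount that depended on the scale. At 48 h the untreated libraries had 28.5, 26.5 and 27.2 TPM and the TGFβ libraries 32.8, 33.7 and 32.3 TPM, a ratio of 1.20 with no overlap. The log2 difference in counts was 0.63 ± 0.16 (adjusted p = 0.0029), against 0.04 at 8 h (adjusted p = 0.89) and 0.13 at 24 h (adjusted p = 0.57). In length-scaled counts the difference at 48 h was 0.29 (adjusted p = 0.009), and on log2(TPM + 1) it was 0.26 (adjusted p = 0.03). The call was lost without untreated 48 h replicate 2 or 3 or TGFβ 48 h replicate 2 (adjusted p = 0.016 each). Counts scale with transcript length and TPM does not, and the transcripts of RBFOX2 were therefore examined.

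Of 56 transcripts of the 6 regulators that could be tested for usage, the level of a transcript relative to the other transcripts of its gene, 0, 0, 0 and 1 passed limma's diffSplice test at 0, 8, 24 and 48 h, beside 0.292%, 0.208%, 0.569% and 0.735% of all transcripts tested. The transcript that passed was RBFOX2-205, which is named because of this result. At 48 h it held 11.02%, 5.53% and 5.47% of the TPM of RBFOX2 in untreated cells and 13.1%, 16.8% and 16.8% with TGFβ. The shares did not overlap at 48 h, and usage differed by 1.25 ± 0.27 on the log2 scale (adjusted p = 0.0021). Untreated libraries at other times reached 14.9% (0 h replicate 2) and 15.8% (24 h replicate 2), within the TGFβ range at 48 h. RBFOX2-205 has 6932 bases, and RBFOX2-209, the transcript with 36.9% of the TPM in untreated cells and 30.4% with TGFβ, has 1356 bases in the deposited tables. By the deposited models the shift was towards a longer transcript, and the difference of RBFOX2 was larger in counts than in TPM. GENCODE 44 gives RBFOX2-209 a length of 7224 bases, longer than RBFOX2-205, so the short model is that of the authors' annotation. Reads from the remaining bases could not be assigned to RBFOX2-209, and whether this moved the share of RBFOX2-205 was not tested. The next lowest adjusted p values at 48 h were 0.011 for MBNL1-205 and 0.038 for QKI-212.

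**Figure D2:**
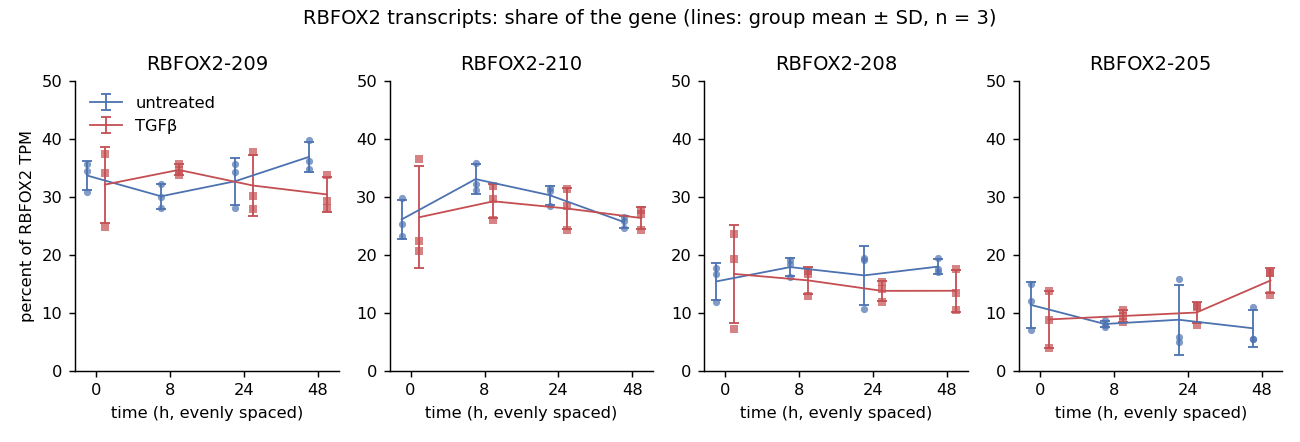
Share of RBFOX2 TPM (vertical axis, %) held by its leading transcripts in each library at 0, 8, 24 and 48 h (horizontal axis, evenly spaced), with points for libraries and lines for group means ± SD (n = 3) of untreated (blue) and TGFβ (red) cells. At 48 h RBFOX2-205 held 13.1% to 16.8% in the TGFβ libraries and 5.47% to 11.02% in the untreated ones. Untreated libraries at other times reached 14.9% (0 h replicate 2) and 15.8% (24 h replicate 2).

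Mesenchymal and epithelial markers also differed between the arms. At 48 h the summed level of VIM, CDH2, FN1, ZEB1 and ZEB2 was 1233 to 1273 TPM in untreated and 4434 to 4475 TPM in TGFβ libraries, and that of EPCAM, CDH1, CLDN4 and GRHL2 was 150.7 to 156.9 and 99.2 to 105.4 TPM. VIM carried most of the first sum (mean 763.7 and 3576 TPM), and CDH2 and FN1 were higher with TGFβ too. ZEB1 (21.1 and 23.5 TPM) and ZEB2 (0.534 and 0.560 TPM) differed little. In the second sum CLDN4 (112.1 and 72.2 TPM) and EPCAM (36.1 and 25.3 TPM) were lower with TGFβ. CDH1 was lower by less (5.22 and 4.47 TPM), and GRHL2 was near 0 (0.0332 and 0.0445 TPM). The sum of the 8 squamous markers was 62.8 to 64.6 and 130.5 to 134.0 TPM, and its members moved in opposite directions. Mean TPM at 48 h went from 5.41 in untreated to 70.5 in TGFβ cells for KRT17 and from 16.1 to 34.4 for PKP1, but from 36.8 to 26.8 for TP63 and from 5.23 to 0.432 for SOX2. Their part in the regulators' differences was not tested. In these bulk samples, fewer cells of a type and less RNA per cell cannot be told apart.

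ENAH (chr1:225486765-225653142, minus strand) showed the strongest and earliest rise of the 9 genes. The untreated libraries had 101.4, 94.6 and 101.0 TPM at 8 h and the TGFβ libraries 199.0, 201.8 and 207.5 TPM. At 24 h they had 106.2, 122.4 and 107.8 TPM against 301.4, 377.3 and 320.5 TPM, and at 48 h 134.2, 140.7 and 134.1 TPM against 490.5, 531.0 and 510.7 TPM. No library overlapped between the arms from 8 h on, and the ratio of mean TPM was 2.05, 2.97 and 3.75 at the 3 later times. The log2 differences were 1.07 ± 0.077, 1.58 ± 0.076 and 1.92 ± 0.075 (adjusted p = 6.7e-10, 3.9e-13 and 8.3e-15). The difference changed by 1.10 from 0 to 8 h (adjusted p = 2.8e-07), and by 0.85 from 8 to 48 h (adjusted p = 4.6e-06). In untreated cells the rise from 0 to 48 h was 0.29 (adjusted p = 0.0032), and in the TGFβ arm it was 2.24 (adjusted p = 3.5e-16).

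The transcripts of ENAH rose together. ENAH-203 rose from 53.6, 53.2 and 52.8 TPM in untreated cells to 191.1, 199.6 and 189.7 TPM with TGFβ at 48 h, and ENAH-207 from 17.9, 19.9 and 18.2 to 74.7, 99.7 and 73.8 TPM. Log2 differences at 48 h were 1.88 for ENAH-203, 1.86 for ENAH-202, 1.92 for ENAH-205 and 2.17 for ENAH-207, and all 4 passed the F-test on transcript levels, beside 9.19% of all transcripts. None of the 4 passed the usage test, with log2 usage differences at 48 h between −0.10 and 0.26 (adjusted p from 0.75 to 1.0). Mean shares over the 8 groups kept to 37.3% to 41.5% for ENAH-203, 24.6% to 26.2% for ENAH-202, 15.2% to 19.2% for ENAH-205 and 11.1% to 16.2% for ENAH-207. The level of the gene thus changed 3.75-fold while its shares moved by a few percentage points. The deposited model of ENAH-203 has 2758 bases, against 13092 in GENCODE 44, so reads from its remaining bases could not be assigned to it.

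**Figure D3:**
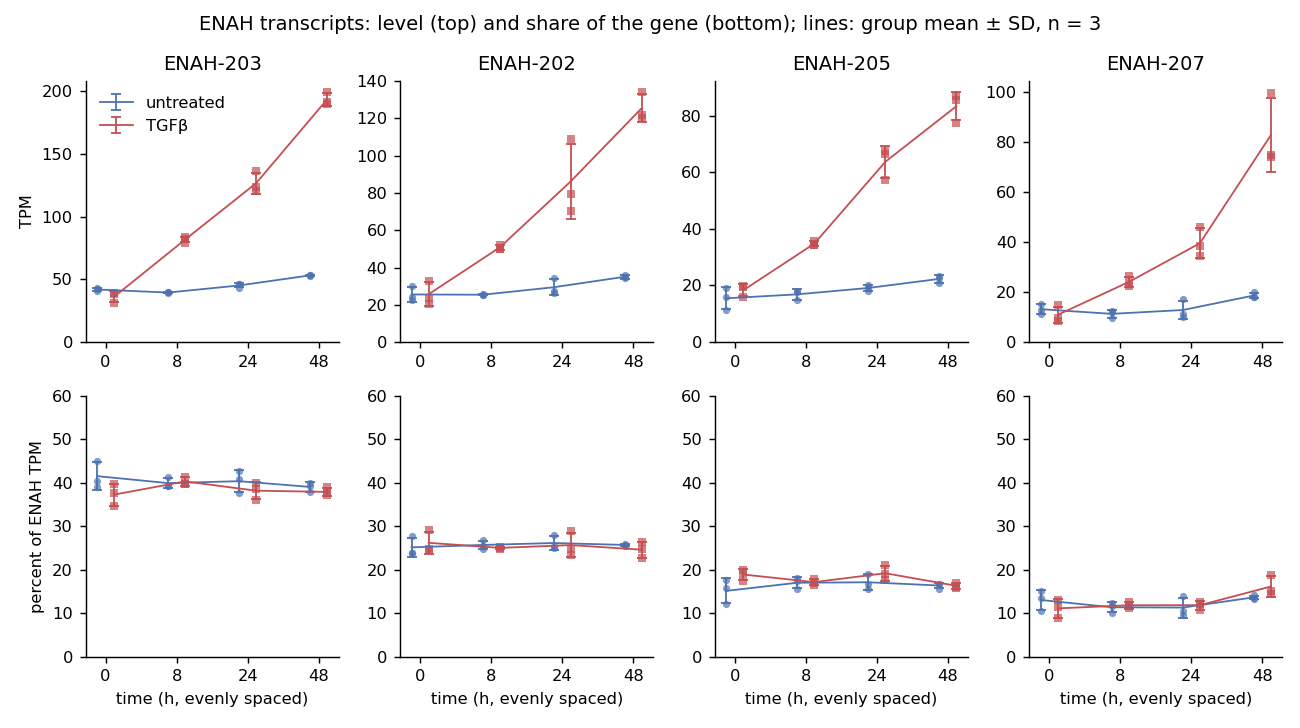
TPM (top) and share of ENAH TPM (bottom, %) of the 4 ENAH transcripts against time in h (evenly spaced), with points for libraries and lines for group means ± SD (n = 3) of untreated (blue) and TGFβ (red) cells. Levels separated from 8 h on, reaching 191.1 to 199.6 TPM against 52.8 to 53.6 TPM for ENAH-203 at 48 h, whereas the shares of the arms lay together.

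FGFR2 (chr10:121478332-121598458, minus strand) was low and fell further behind with TGFβ over time. Its libraries at 24 h had 0.656, 0.816 and 0.765 TPM in untreated cells and 0.198, 0.367 and 0.318 TPM with TGFβ. At 48 h they had 1.23, 0.926 and 1.09 TPM against 0.172, 0.356 and 0.208 TPM, from 168.3, 101.2 and 141.2 estimated counts against 22, 13 and 14. The arms did not overlap at 8, 24 or 48 h, and the log2 differences were −0.61 ± 0.18, −1.66 ± 0.18 and −2.78 ± 0.20 (adjusted p = 0.018, 1.3e-07 and 2.9e-10). From 0 to 48 h FGFR2 rose by 0.89 on the log2 scale in untreated cells (adjusted p = 6.4e-06), and in the TGFβ arm it fell by 1.85 (adjusted p = 1.6e-07). FGFR2 was the only 1 of the 9 genes whose arm difference also changed between 24 and 48 h, times that share a code within each arm (by −1.12 ± 0.27, adjusted p = 0.0061). That call was lost without any 1 of 7 libraries of those times, and on log2(TPM + 1). For ESRP1 the change between these times (0.72 ± 0.19, adjusted p = 0.01 after rounding) just missed the threshold.

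Among the transcripts of FGFR2, FGFR2-206 alone passed the F-test on transcript levels (adjusted p = 0.0012). This transcript, which carries exon IIIc, had 0.651, 0.435 and 0.492 TPM in untreated cells at 48 h and was listed at 0 in all 3 TGFβ libraries. Against a floor of 3 counts per library, its mean count per library size was 23.1-fold lower. The floor covers counting error only and not how kallisto split reads over transcripts, so it sets no lower bound. All transcripts of the gene had 13 to 22 counts in those libraries. There FGFR2-224 held 79.7% of the gene's TPM in replicate 1 and FGFR2-205 held 44.8% in replicate 3, both with exon IIIc. Both were listed at 0 in replicate 2. At 0 h it had 0.291, 0.273 and 0.307 TPM in untreated and 0.230, 0.182 and 0.172 TPM in TGFβ libraries, without overlap. Whether TGFβ was added to the 0 h cells of that arm before collection is not given in the sources used here. Its usage difference at 48 h had an adjusted p of 0.028 in diffSplice and did not pass. The other 8 FGFR2 transcripts over the limit of 10% were listed at 0 in some libraries and at over 10% of the gene's TPM in others of the same group, with the gene's few counts split over 25 transcripts. Of the transcripts over the limit, FGFR2-209 came closest to it, with 12.2% in its highest group, and FGFR2-223 (9.62%), SLK-203 (9.54%) and SLK-202 (8.89%) lay just under it.

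SLK (chr10:103967140-104029233, plus strand), which encodes a Ste20-like kinase of adhesion turnover, passed no test between the arms. At 48 h the untreated libraries had 17.2, 18.8 and 18.4 TPM and the TGFβ libraries 17.3, 16.6 and 16.6 TPM. Log2 differences were −0.05, 0.03 and −0.06 at 8, 24 and 48 h (adjusted p = 0.74, 0.81 and 0.67). SLK-201 held 83.9% to 92.1% of the TPM in every group.

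**Figure D4:**
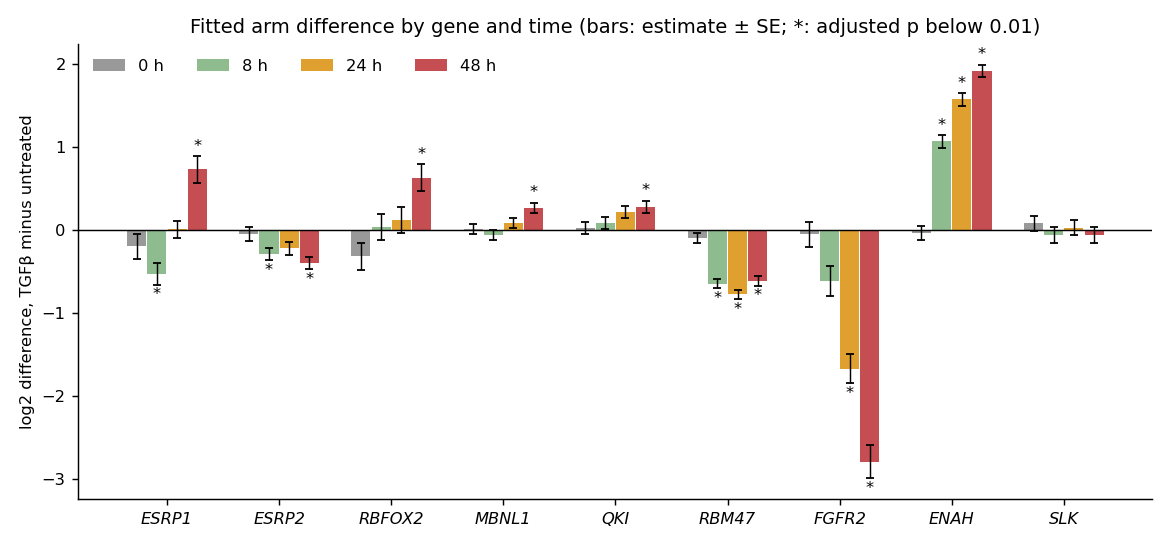
Log2 difference of TGFβ minus untreated for each of the 9 genes at 0, 8, 24 and 48 h, from limma voom (n = 3 per group), with bars for the estimates, whiskers of 1 SE and stars where the adjusted p was below 0.01. ENAH reached 1.92 and FGFR2 −2.78 at 48 h, RBM47 lay below 0 from 8 h on, and ESRP1, RBFOX2, MBNL1 and QKI were above 0 at 48 h.

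The exon shares asked whether isoform choice, and not only level, differed between the arms. Each share is the TPM of transcripts with the exon over that of transcripts with and without it, and for FGFR2 it is exon IIIb against IIIc, from 6 and 8 transcripts. Differences were averaged over 8, 24 and 48 h and tested by an exact permutation test, two-sided, with 8000 relabellings and a smallest possible p of 0.00025. None of the 3 shares passed. Which transcripts hold an exon was read from GENCODE 44 by identifier, not from the deposited models. Some of these differ in length, such as FGFR2-206 (4255 bases deposited, 4624 in GENCODE 44) and SLK-202 (7766 and 7827). Whether the deposited models hold the same exons was not tested. In diffSplice's gene-level usage test, 0 of the 9 genes passed at any time, beside 0.442%, 0.404%, 1.56% and 2.35% of all genes tested at 0, 8, 24 and 48 h.

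The FGFR2 exon IIIb share ranged from 0% to 47.5% in untreated libraries (median 20.2%, n = 9) and from 10.1% to 48.8% with TGFβ (median 20.7%, n = 9). The ranges overlapped almost whole. The difference was 4.23 percentage points, with a 95% interval of −7.44 to 15.4 (exact permutation p = 0.441, Benjamini-Hochberg adjusted 0.661). The shares rested on 45.0 to 137.9 estimated counts of both forms in untreated libraries and on 6.8 to 42.0 with TGFβ. The share of 0 was that of untreated 24 h replicate 2. Its 84.4 counts allow a share of up to 3.56% by counting error only, which leaves aside how kallisto split reads over transcripts. Without untreated 48 h replicate 2 the difference was 7.53 points (exact permutation p = 0.0958).

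ENAH exon 11a was included in 40.6% to 46.1% of the counted TPM in untreated libraries (median 43.1%) and in 40.7% to 47.8% with TGFβ (median 42.5%). At 48 h the means were 43.1% ± 0.695 (SD, n = 3) and 43.1% ± 1.84. The difference was 0.055 points, with an interval of −1.90 to 2.08 (exact permutation p = 0.947, adjusted 0.947), from 9751.1 to 39333.8 counts per library. ENAH-203, the main transcript without the exon, has 2758 bases in its deposited model, and ENAH-204, which holds the exon, has 13168. The size of this share therefore depends on the transcript models and does not measure the exon alone. Most of the including TPM lay on ENAH-202, which the annotation types as a retained intron. Among protein-coding transcripts alone the share at 48 h was 8.87% in untreated and 9.94% in TGFβ cells (difference over the times 0.433 points, exact permutation p = 0.149). These protein-coding shares did not overlap at 48 h (8.67% to 9.27% and 9.56% to 10.1%). At 8 h they were lower with TGFβ, also without overlap (9.82% to 10.1% in untreated and 9.23% to 9.70% in TGFβ cells), and at 24 h they overlapped.

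SLK exon 13 was included in 4.51% to 11.7% of the TPM in untreated libraries (median 6.37%) and in 3.34% to 10.9% with TGFβ (median 5.92%). The difference was −0.889 points, with an interval of −2.82 to 1.0 (exact permutation p = 0.333, adjusted 0.661). The inclusion of exon 13 rested on a single transcript, SLK-202, and the arms overlapped.

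**Figure D5:**
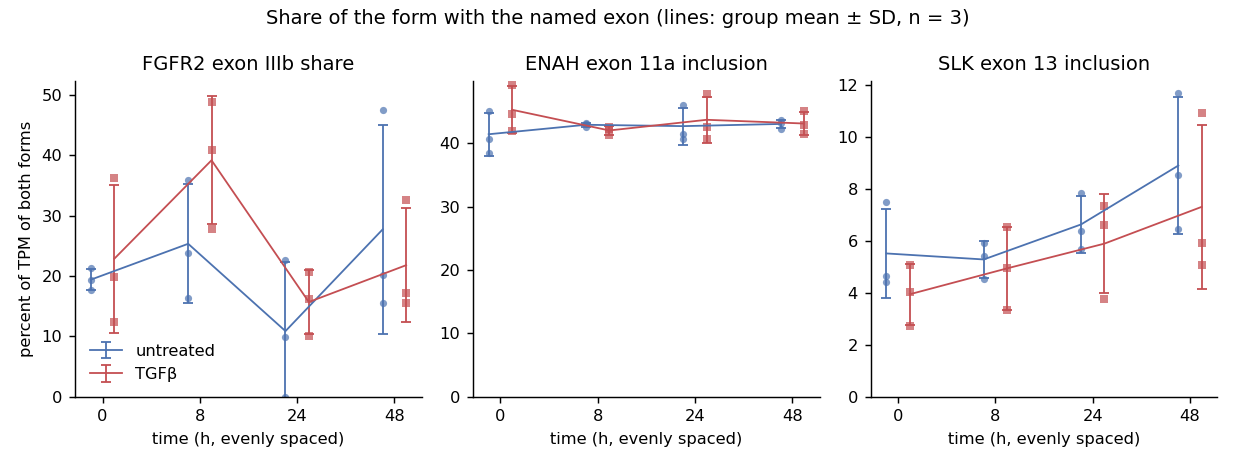
Share of FGFR2 exon IIIb, ENAH exon 11a and SLK exon 13 (vertical axes, %) in every library against time in h (horizontal axes, evenly spaced), with points for libraries and lines for group means ± SD (n = 3) of untreated (blue) and TGFβ (red) cells. From 8 h on, FGFR2 scattered from 0% to 48.8%, ENAH stayed between 40.6% and 47.8% and SLK between 3.34% and 11.7%, with the arms overlapping.

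The introns beside the printed exons were searched, on the transcript strand only and over 300 bases on each side, for the RBFOX motif TGCATG, the QKI motif ACTAA and the ESRP motif TGGTGG. The intron before SLK exon 13 held TGCATG 3 times, ending 14, 115 and 165 bases before the exon, and 8.88% of 124208 internal exons hold it at least once there. Their surroundings, printed because the nearest lies within the intron bases shown above and all 3 share the motif in capitals, read as follows.
SLK 14 bases upstream: ttccccacctccTGCATGcttatacactgt
SLK 115 bases upstream: cacctatgctaaTGCATGttgaaaggaact
SLK 165 bases upstream: gcactgagattaTGCATGttctcttctttc
ACTAA stood 2 times before and 3 times after SLK exon 13, 1 time before ENAH exon 11a and in none of the other windows of these 3 exons (22.4% of internal exons hold it before and 22.0% after). TGGTGG stood 2 times, overlapping, before FGFR2 exon IIIb, which 11.9% of internal exons match. These matches describe the sequence and no binding was measured. SLK, whose intron held most of these matches, had the exon share given above, which did not differ between the arms beyond its spread.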

How the data were processed

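RNA-Seq libraries of untreated and TGFβ1-treated SK-MES1 cells were analysed from 1 deposited table per library. The authors quantified reads with kallisto 0.43.0 against Ensembl transcripts of GRCh38, per the submitters' processing notes and the study's methods. Estimated counts, as deposited, give the reads kallisto expects per transcript and are neither normalized nor whole. The deposited TPM values are these counts divided by effective length and scaled per library, by the authors. The deposited effective lengths were used for length-scaled counts only. Replicates were not pooled.

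Transcripts were joined to genes by identifier with GENCODE 44, and 17741 of 173259 transcripts without a match were left out. Gene sums of estimated counts were rounded, and genes reaching 10 in 3 or more libraries entered the test with limma 3.58.1 (voom, TMM factors, 1 mean per group, R 4.3.3), adjusted by Benjamini-Hochberg over all genes, threshold 0.01. Transcripts were tested in the same way, and their usage with limma's diffSplice. Exon shares were tested by exact permutation of labels within time points (numpy 2.4.6), with 95% intervals by inversion. Tests were first run on simulated data, where the usage test found only a small part of the changed transcripts. Replicates were compared by chi-square of counts over genes (3.09 to 55.2 per degree of freedom in 24 pairs), and no pair agreed within sampling noise.

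The 9 genes, the lists of other regulators and targets, and the tests were chosen with earlier results of these data known. Named genes are these 9, the transcripts over and just under the 10% limit, the 4 other regulators and 4 other targets with the lowest p values and, for each regulator, 2 genes of similar pattern among genes over 10 TPM. Genes named outside this rule are said to be so, and results of some items under the rule are not reported here. Alternatives were edgeR 4.0.16 (quasi-likelihood), DESeq2 1.42.0, upper-quartile factors, library totals, length-scaled counts, limma-trend with 1 or 0.1 added to TPM before the log2, library sizes from the study's 4 qRT-PCR reference genes, other filters and thresholds, a replicate block, the change from 0 h, fits within a time point, and each library left out. Intervals and floors (3 counts) cover counting error only where they rest on counts. Plots were made with matplotlib 3.10.9.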

Additional observations from a re-analysis of the deposited data

Results flagged for a closer look

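The arm difference of 9 genes was compared between 6 pairs of time points, 54 changes in all, and 16 passed limma voom's interaction test at an adjusted p of 0.01. Pairs that share a time point are not independent. At 24 and 48 h against 0 or 8 h the codes in the tables' names differ as well, and that part cannot be told apart from treatment.

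For ENAH the difference grew by 1.10 on the log2 scale from 0 to 8 h, 1.61 from 0 to 24 h (adjusted p = 3.1e-10), 1.95 from 0 to 48 h (adjusted p = 9.8e-12), 0.51 from 8 to 24 h (adjusted p = 0.0031) and 0.85 from 8 to 48 h. For FGFR2 it changed by −1.62 from 0 to 24 h (adjusted p = 1.7e-05), −2.74 from 0 to 48 h (adjusted p = 2.6e-08), −1.05 from 8 to 24 h (adjusted p = 0.008), −1.12 from 24 to 48 h (adjusted p = 0.0061) and −2.18 from 8 to 48 h (adjusted p = 4.3e-06). FGFR2 thus kept diverging at each step after 8 h, on few counts.

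For RBM47 the change was −0.55 from 0 to 8 h, −0.68 from 0 to 24 h (adjusted p = 1.1e-06) and −0.52 from 0 to 48 h (adjusted p = 3.3e-05), with no further change that passed after 8 h. The ESRP1 difference changed by 0.93 from 0 to 48 h (adjusted p = 0.002) and by 1.26 from 8 to 48 h (adjusted p = 8.4e-05), from lower to higher with TGFβ, at 41 to 113 estimated counts per library. RBFOX2 changed by 0.95 from 0 to 48 h (adjusted p = 0.003). TGFβ 0 h replicate 1, with 20.5 TPM of RBFOX2 against 26.3 and 31.0 TPM, was the lowest of its group at 0 h.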

How the results depend on the processing

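Of the 9 genes, 7 passed the F-test, against 4 on log2(TPM + 1), 4 on log2(TPM + 0.1) and 4 for the change from 0 h. At 8 h 4 passed, against 2 each on log2(TPM + 1), log2(TPM + 0.1), length-scaled counts, 4 reference genes and the change from 0 h. At 24 h 3 passed, against 5 at an adjusted p of 0.05 and 7 with 4 reference genes. At 48 h 8 passed, against 4 on log2(TPM + 1), 4 on log2(TPM + 0.1) and 5 for the change from 0 h. For the change from 0 to 8 h 2 passed, against 1 with 4 reference genes. For the change from 24 to 48 h 1 passed, against 3 at 0.05, 2 with upper-quartile factors, 2 at 10 counts in 12 libraries, and 0 on log2(TPM + 1), log2(TPM + 0.1), length-scaled counts and without a filter. Target transcripts with changed usage at 48 h numbered 0, against 1 at 0.05 and 2 by limma-trend on log2(TPM + 1). Other regulators past the F-test numbered 11, against 6 on log2(TPM + 1), 6 on log2(TPM + 0.1) and 7 for the change from 0 h, and the alternatives for the lists of other regulators and targets were chosen after seeing the data. ESRP2 at 24 h turned from −0.22 to 0.23 with 4 reference genes. The causes were not tested. The directions of ENAH, FGFR2 and RBM47 at 8, 24 and 48 h were kept in all 14 alternatives and all 24 fits that left out 1 library.

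Scaling moved the balance of calls. The share of all called genes that was higher with TGFβ was 55.7%, 52.7% and 49.5% at 8, 24 and 48 h, 33.9%, 34.2% and 35.6% with library totals, and 73.8%, 94.0% and 87.8% with 4 reference genes.

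The replicate numbers were not taken to pair the samples, since 4 of 12 same-numbered pairs had correlations of their deviations over 0.1 (range −0.047 to 0.301). At 0 and 24 h all 6 were positive, 0.072 to 0.301, and the own number was best in 5 of 6, a hint that comes from the data and not from the design. With the replicate block 4, 4 (QKI in addition) and 8 of the 9 genes passed at 8, 24 and 48 h, 2 for the change from 24 to 48 h, and 2 of the other targets against 1. Paired sign flips gave exact permutation p values of 0.445, 0.922 and 0.434 for the FGFR2, ENAH and SLK shares.

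With 1 library left out, counts ranged from 6 to 8 (F-test), 0 to 0 (0 h), 2 to 4 (8 h), 3 to 5 (24 h), 6 to 8 (48 h), 2 to 2 (change from 0 to 8 h), 0 to 3 (24 to 48 h), 5 to 8 and 6 to 7 (48 h against 0 h, untreated and TGFβ), 10 to 11 (other regulators), 0 to 1 (other targets) and 0 to 0 (target usage). At 24 h 4 genes passed without TGFβ 0 h replicate 2. Exon shares differed by 2.19 to 7.53 points (FGFR2), −0.622 to 0.613 (ENAH) and −1.49 to −0.422 (SLK).

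FGFR2 and ESRP1 rested on few counts, and isoform shares on the transcript models of the tables. Transcript shares are estimates of kallisto whose own error was not used here. Usage tests had little power, so a usage change that did not pass is not shown to be absent.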

Other observations

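A list of 20 other splicing regulators was examined in the same fit, and 19 could be tested. Of these, 11 passed limma voom's F-test, 7 higher and 4 lower on average with TGFβ, beside 42.5% of all genes, with a median average log2 difference of 0.06. NOVA1, a neuronal splicing factor, was lower at 8, 24 and 48 h (−0.38, −0.52 and −0.42, adjusted p = 3.3e-09). CELF2 was lower by a growing amount, with log2 differences of −0.33, −0.89 and −1.73 (adjusted p = 6.2e-08), at a low level. From 24 to 48 h its mean rose from 0.720 to 1.36 TPM in untreated cells and went from 0.357 to 0.339 TPM with TGFβ. PTBP3, a paralog of the polypyrimidine tract-binding protein, was higher (0.49, 0.24 and 0.31, adjusted p = 7.3e-06). HNRNPF, which binds G-rich RNA, was lower by a small amount (average −0.14 ± 0.016, adjusted p = 1.9e-06).

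Of 12 other genes known for EMT isoforms, 0, 2 and 1 passed diffSplice's gene-level usage test at 8, 24 and 48 h, beside 0.404%, 1.56% and 2.35% of all genes tested. At 48 h it was EXOC7, an exocyst subunit gene (adjusted p = 0.0049). RAC1 (adjusted p = 0.0001) and ITGA6 (adjusted p = 0.0072, outside the naming rule) passed at 24 h and at none of the other times. TCF7L2, a transcription factor gene of the Wnt pathway, did not pass at 48 h (adjusted p = 0.58).

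Across the 8 group means, the log2 TPM of the genes most like each regulator gave Pearson's r of 0.953 (RNPEP) and 0.942 (EBP) for ESRP1, 0.989 (CTC1) and 0.986 (SLC46A1) for ESRP2, 0.945 (TGIF1) and 0.933 (RCOR3) for RBFOX2, 0.981 (RBMXL1) and 0.975 (NXPE3) for MBNL1, 0.997 (GARRE1) and 0.992 (INSR) for QKI, and 0.978 (HEXIM1) and 0.96 (PCBP3) for RBM47. These are the highest values among many genes over 8 points that share time and treatment, and they are given as a description.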
